A study of Mus musculus with 112 samples.

Results

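The 34 genes described here encode the chaperones and folding enzymes of the endoplasmic reticulum (ER) and the sensors, transcription factors and degradation machinery of its stress response. They were taken by symbol, or by an older synonym, from the probe sets of a mouse expression array. All 34 were measured, by 54 of the table's 32640 probe sets, and 13 of them had more than 1 probe set. The whole table gave 16643 genes. RNA came from epididymal white fat, gastrocnemius muscle and liver of 41 male mice, not all of them measured in every tissue. The mice were homozygous for a Pro12Ala knock-in of Pparγ, the nuclear receptor that drives fat cell formation (Ala/Ala), or were Pro/Pro littermates, and ate a high-fat diet (HFD) or rodent chow from 8 weeks of age. In fat there were 8 Ala/Ala HFD, 9 Ala/Ala chow, 10 Pro/Pro HFD and 10 Pro/Pro chow arrays. In muscle there were 9 Ala/Ala HFD, 10 Ala/Ala chow, 8 Pro/Pro HFD and 8 Pro/Pro chow arrays. In liver each of the groups had 10 arrays. The series text gives 15 weeks of diet and the sample descriptions 12 weeks, and the feeds named differ. The knock-in is carried in the germline and was not restricted to a tissue.

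The ER folds secreted and membrane proteins with chaperones such as Hspa5 (BiP) and Hsp90b1 (Grp94) and with protein disulfide isomerases. When unfolded proteins accumulate, the sensors encoded by Ern1 (IRE1α), Eif2ak3 (PERK) and Atf6 start the unfolded protein response: IRE1α splices the mRNA of the transcription factor Xbp1, PERK raises translation of Atf4, and cleaved ATF6 enters the nucleus, and together they raise chaperones, ER-associated degradation and, under lasting stress, Ddit3 (CHOP). Obesity is known to engage this response in liver and fat, and adipocytes and hepatocytes both secrete large amounts of protein.

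Every value is a ratio of 1 mouse to a virtual pool of the Pro/Pro HFD arrays of its tissue, here on the log2 scale, so levels cannot be compared between genes or tissues and the tissue itself cannot be checked against its markers. Muscle values could be checked against this pool only in part. Their base and direction were taken to be those of fat and liver, and the sign and size of muscle differences rest on that. Of 37 fat arrays, 9 (6 HFD, 3 chow) carried epididymis or hepatocyte transcripts more than 2 above the median of the fat arrays. In tissue RNA, fewer cells of a type and less RNA per cell cannot be told apart. The array does not distinguish spliced from unspliced Xbp1. Differences below are HFD minus chow or Ala/Ala minus Pro/Pro with standard errors from limma, and a gene was called at a Benjamini-Hochberg adjusted p under 0.05 over all 16643 genes.

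Promoters were looked at because several of these genes are textbook targets of ATF6, XBP1 and ATF4. RefSeq promoters on GRCm38.p6, from 250 bases before the transcription start to 50 after it, were matched for 30 of the 34 genes. Those of Hyou1, Manf, Derl1 and Atf6 were not found. The ER stress element, ERSE (CCAAT, any 9 bases and CCACG, on either strand), was found in 10 of the 30 member genes, against 0.137% of all 27025 genes. These were Calr, Canx, Creld2, Derl3, Dnajc3, Ero1lb, Hsp90b1, Hspa5, Pdia6 and Syvn1. The shorter ERSE-II (ATTGG, any 1 base and CCACG) was found in Dnajb11 and Herpud1, against 0.0444% of all genes. The XBP1-type element TGACGTGG was found in 0 of the 30, against 0.714% of all genes. The composite C/EBP-ATF element TGATGNAA, a site type bound by ATF4, was found in 5 of the 30 (Asns, Atf3, Chac1, Herpud1 and Trib3), against 4.51% of all genes. Matches on both strands were counted, and no match in a member overlapped another. A match describes letters in these windows only. Since textbook targets are among the members, the shares beside all genes are descriptions and not a test. The promoters below are given 5′ to 3′ on the gene's strand, with matches in capitals, for Hspa5, to which the other members are related further on, for 2 chaperones with ERSE matches, for the degradation genes Syvn1 and Herpud1 and for the ATF4 target Trib3, which include members that did and did not move with Hspa5. The ERSE of Hspa5 starts 65 bases before the transcription start (chr2:34771840-34772139 (+ strand)). Hsp90b1 has ERSE matches that start 212 and 107 bases before it (chr10:86705395-86705694 (- strand)). Creld2 has its match 126 bases before the start, on the other strand (chr15:88819396-88819695 (+ strand)). Syvn1 has its match 44 bases before the start (chr19:6046326-6046625 (+ strand)). Herpud1 holds an ERSE-II 52 bases before the start and a C/EBP-ATF element farther upstream (chr8:94386179-94386478 (+ strand)). In Trib3 the C/EBP-ATF element lies within the first transcribed bases (chr2:152344011-152344310 (- strand)).
Hspa5: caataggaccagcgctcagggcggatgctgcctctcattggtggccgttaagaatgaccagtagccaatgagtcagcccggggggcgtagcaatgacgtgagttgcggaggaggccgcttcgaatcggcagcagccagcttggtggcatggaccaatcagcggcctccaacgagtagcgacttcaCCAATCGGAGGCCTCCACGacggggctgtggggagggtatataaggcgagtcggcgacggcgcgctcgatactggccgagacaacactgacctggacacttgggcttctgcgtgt
Hsp90b1: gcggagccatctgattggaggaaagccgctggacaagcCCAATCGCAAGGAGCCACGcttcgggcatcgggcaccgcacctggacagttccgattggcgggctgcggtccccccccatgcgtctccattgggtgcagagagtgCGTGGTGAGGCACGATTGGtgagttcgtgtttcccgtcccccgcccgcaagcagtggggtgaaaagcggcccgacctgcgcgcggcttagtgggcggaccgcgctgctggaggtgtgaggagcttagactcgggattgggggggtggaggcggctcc
Creld2: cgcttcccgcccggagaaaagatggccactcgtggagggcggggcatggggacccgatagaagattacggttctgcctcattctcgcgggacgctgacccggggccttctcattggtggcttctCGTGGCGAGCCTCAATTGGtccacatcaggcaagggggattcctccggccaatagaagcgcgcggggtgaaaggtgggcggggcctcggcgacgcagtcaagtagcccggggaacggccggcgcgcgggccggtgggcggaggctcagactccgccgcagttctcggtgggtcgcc
Syvn1: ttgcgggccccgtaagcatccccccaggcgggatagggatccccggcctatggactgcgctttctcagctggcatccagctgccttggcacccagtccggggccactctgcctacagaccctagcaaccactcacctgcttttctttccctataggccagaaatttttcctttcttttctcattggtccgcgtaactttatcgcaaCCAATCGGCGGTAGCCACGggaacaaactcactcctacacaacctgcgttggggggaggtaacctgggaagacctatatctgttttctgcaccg
Herpud1: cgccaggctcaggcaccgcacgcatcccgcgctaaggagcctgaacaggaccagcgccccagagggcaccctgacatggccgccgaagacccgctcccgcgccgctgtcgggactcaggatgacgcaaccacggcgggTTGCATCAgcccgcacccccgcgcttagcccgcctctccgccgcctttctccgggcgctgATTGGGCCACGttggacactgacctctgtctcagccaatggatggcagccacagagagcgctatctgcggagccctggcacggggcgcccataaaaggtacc
Trib3: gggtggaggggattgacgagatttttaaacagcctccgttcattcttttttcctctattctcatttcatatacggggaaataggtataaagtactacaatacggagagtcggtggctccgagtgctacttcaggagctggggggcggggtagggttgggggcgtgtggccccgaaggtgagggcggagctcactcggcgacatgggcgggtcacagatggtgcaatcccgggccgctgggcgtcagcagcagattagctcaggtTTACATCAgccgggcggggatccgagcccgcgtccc

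On HFD, fat had lower levels of the IRE1 branch genes Ern1 and Xbp1, of the PERK gene Eif2ak3 and of the degradation channel genes Derl1 and Derl2, while the central chaperone Hspa5 differed by -0.001 and was not called. Of the 34 members 8 were higher and 10 lower on HFD over both genotypes. Among all genes 21.6% were higher and 18.3% lower (39.9% in all), so calls were common among all genes too, and the members split in direction. Their median difference was -0.002, against 0.04 over all genes. By role, 3 chaperones and co-chaperones rose and 1 fell of 11, 2 oxidative folding enzymes rose and 2 fell of 6, 2 degradation genes rose and 3 fell of 7, 0 of the sensors and Xbp1 rose and 3 fell of 4, and 1 gene of the PERK-ATF4 arm rose and 1 fell of 6.

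**Figure D1:**
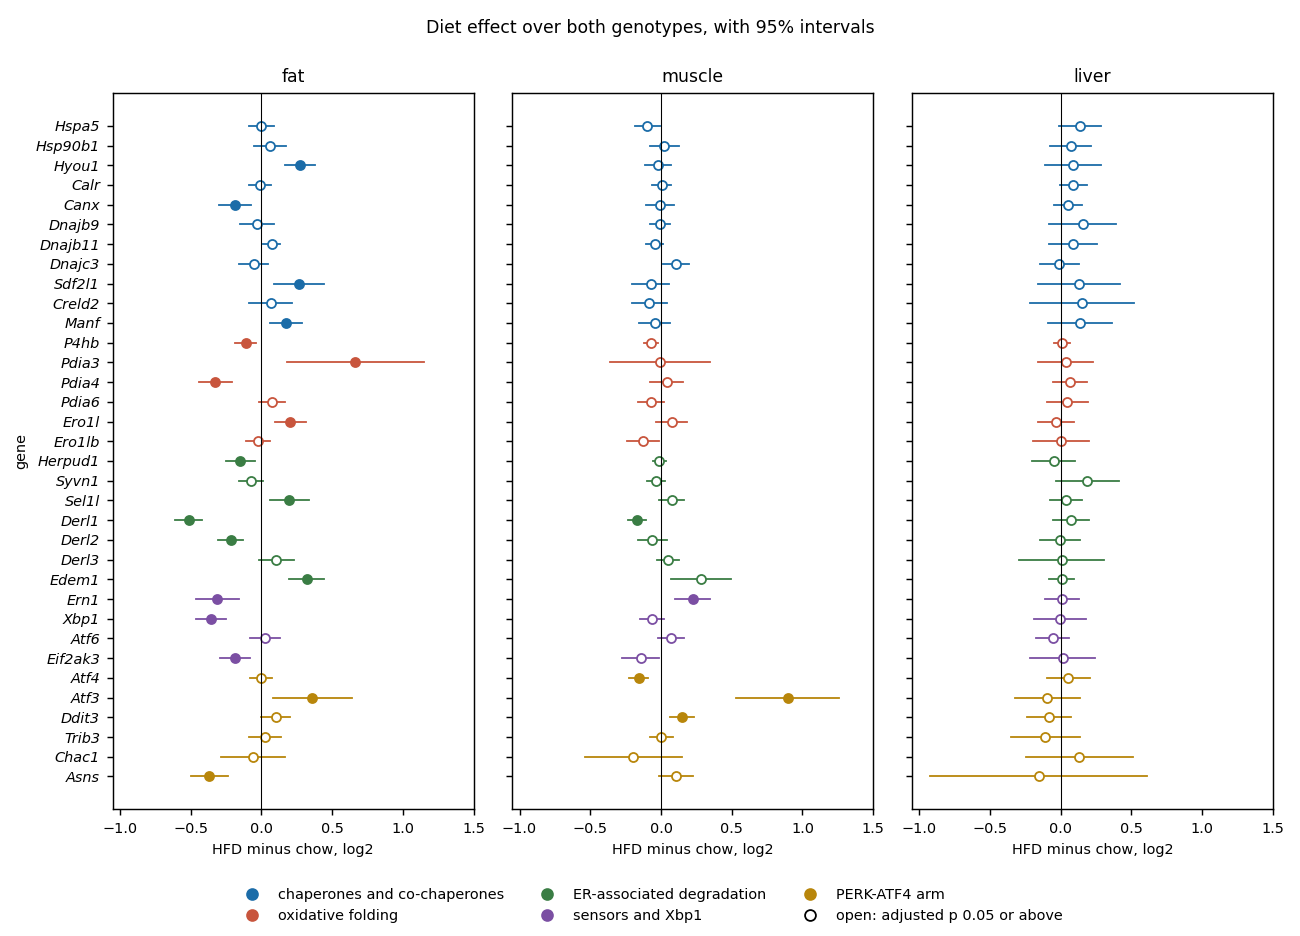
Diet effect of each of the 34 genes over both genotypes in fat, muscle and liver. The x axis is the log2 difference HFD minus chow, points are limma estimates, lines are 95% intervals, colours are roles and filled points have an adjusted p under 0.05. In fat 18 points are filled and lie on both sides of 0, in muscle 5 are filled and in liver 0.

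Among the sensors, Xbp1, the transcription factor of the IRE1 branch, ranged from -0.13 to 0.36 with a median of -0.04 in the 18 HFD fat arrays, and from 0.07 to 0.76 with a median of 0.30 in the 19 chow arrays. Its level was below every chow array in 14 of the 18 HFD arrays. The difference was -0.35 ± 0.05 (adjusted p 2.11e-06). Ern1, the kinase and RNase that splices Xbp1, had medians of -0.05 on HFD and 0.25 on chow and differed by -0.31 ± 0.08 (adjusted p 0.00115), with 9 HFD arrays below every chow array. Of its 3 probe sets 2 were called lower and the other differed by 0.003. Eif2ak3, the kinase PERK, differed by -0.19 ± 0.05 (adjusted p 0.00532). Atf6, the third sensor, differed by 0.02 ± 0.05 (adjusted p 0.759), and 1 of its 4 probe sets was called higher, by 0.10.

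Among the degradation genes, Derl1 separated the diets without overlap, and how many of all genes do so was not counted. This channel protein, which passes misfolded proteins out of the ER, ranged from -0.44 to 0.24 (median -0.04) in HFD fat and from 0.27 to 0.68 (median 0.46) in chow fat. All 18 HFD arrays lay below all 19 chow arrays, and the difference was -0.51 ± 0.05 (adjusted p 1.9e-10). Its 3 probe sets were all called lower, at -0.17 to -0.51. The related Derl2 had medians of 0.004 on HFD and 0.21 on chow and differed by -0.22 ± 0.05, but its other probe set differed by 0.06. Herpud1, which recruits the ubiquitin ligase complex, differed by -0.15 ± 0.05. Edem1, a lectin that hands over misfolded glycoproteins, had a median of 0.02 on HFD and -0.26 on chow and rose by 0.32 ± 0.06 (adjusted p 0.000111), and its other probe set differed by 0.05. Sel1l, the partner of the ligase Syvn1, was higher by 0.20 ± 0.07, but of its 4 probe sets 2 were called higher and 1 lower. Syvn1 and Derl3 were not called.

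Among chaperones, Hspa5 ranged from -0.13 to 0.21 (median 0.02) on HFD and from -0.23 to 0.31 (median 0.01) on chow. The diet groups overlapped throughout, and the difference was -0.001 with a 95% interval of -0.09 to 0.09. Hsp90b1, the ER member of the Hsp90 family, differed by 0.06 ± 0.06, and Calr, the lectin chaperone calreticulin, was not called. Hyou1, a nucleotide exchange factor for Hspa5, ranged from -0.21 to 0.30 (median -0.05) on HFD and from -0.50 to 0.03 (median -0.35) on chow. Its difference was 0.27 ± 0.05 (adjusted p 7.62e-05), and 5 HFD arrays lay above every chow array. Sdf2l1, a partner of ER J-proteins, was higher by 0.27 ± 0.09 (adjusted p 0.0161). Manf, a secreted co-factor of Hspa5, was higher by 0.17 ± 0.06 (adjusted p 0.0172). Canx, the membrane-bound lectin chaperone calnexin, was lower, at -0.19 ± 0.06 (adjusted p 0.00887).

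Of the oxidative folding enzymes, the disulfide isomerase Pdia4 ranged from -0.37 to 0.43 (median -0.04) on HFD and from 0.01 to 0.57 (median 0.29) on chow. It fell by 0.32 ± 0.06 (adjusted p 3.75e-05), both probe sets were called lower, and 13 HFD arrays lay below every chow array. P4hb, the founding disulfide isomerase, was lower, at -0.11 ± 0.04 (adjusted p 0.0161). Ero1l, the oxidase that recharges these isomerases, had medians of 0.11 on HFD and -0.10 on chow and was higher by 0.21 ± 0.06, with both probe sets called. Pdia3 was higher by 0.67 ± 0.25 (adjusted p 0.0299) on a probe set with a residual SD of 0.779, and its other probe set differed by 0.08. Its arrays ran from -1.27 to 1.48 on HFD and from -1.26 to 1.18 on chow.

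In the PERK-ATF4 arm the transcription factor Atf4 had medians of 0.06 on HFD and 0.04 on chow, and the difference was -0.003 ± 0.04. Ddit3, the pro-apoptotic factor CHOP, had medians of -0.06 on HFD and -0.14 on chow and differed by 0.10 ± 0.05 (adjusted p 0.131). Asns, the asparagine synthetase that ATF4 induces, ranged from -0.72 to 0.36 (median -0.04) on HFD and from -0.04 to 0.50 (median 0.31) on chow. It fell by 0.37 ± 0.07 (adjusted p 2.42e-05), with 8 HFD arrays below every chow array. Atf3, a factor induced by many stresses, was higher by 0.36 ± 0.14 (adjusted p 0.0421), and leaving out any of 19 of the 37 arrays ended this call. Trib3 and Chac1, targets of ATF4 and CHOP, were not called.

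**Figure D2:**
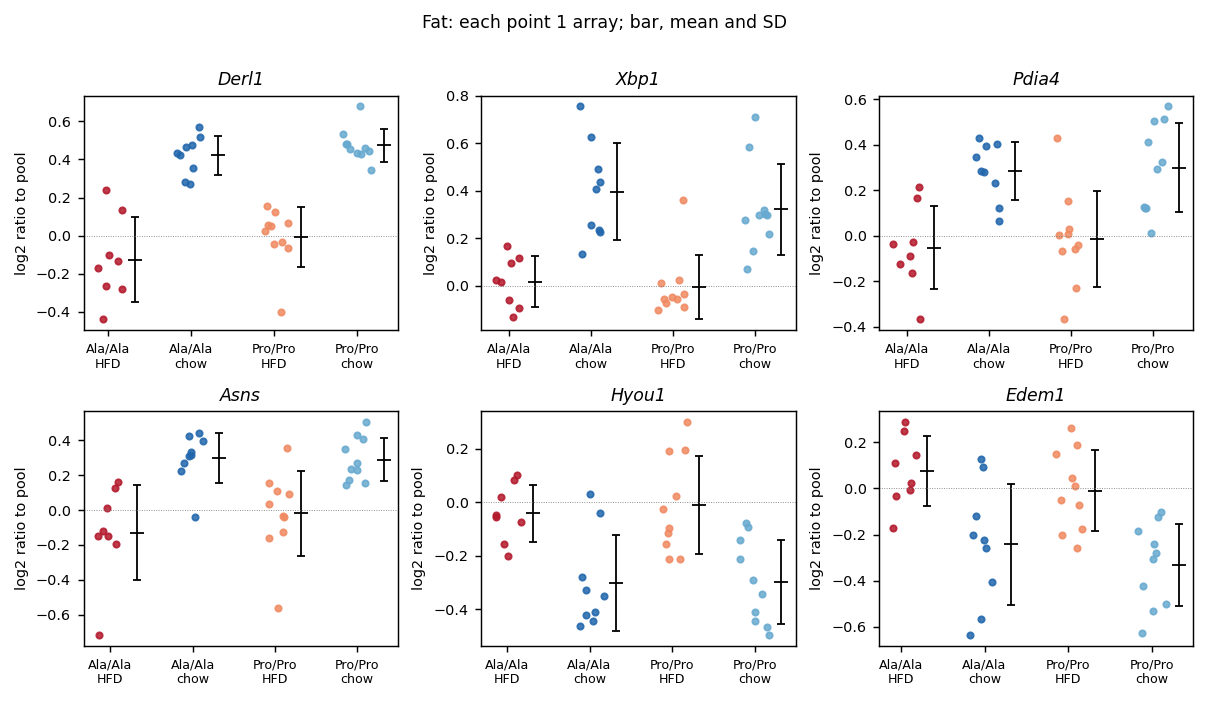
Log2 ratio to the pool of 6 genes in fat, with 1 point per array in each group and the mean and SD as a bar. Derl1, Xbp1, Pdia4 and Asns are lower and Hyou1 and Edem1 higher in the HFD groups, and Derl1 shows no overlap between HFD and chow arrays.

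Both genotypes contributed to these differences. In Ala/Ala fat 6 members were higher and 6 lower on HFD, against 14.7% and 12.7% of all genes (27.4% in all). In Pro/Pro fat 2 were higher and 7 lower, against 11.7% and 12.3% (24% in all). Derl1, Edem1, Asns, Hyou1, Pdia4, Ern1 and Xbp1 were called in both. Derl1 averaged -0.13 ± 0.22 in Ala/Ala HFD, 0.42 ± 0.10 in Ala/Ala chow, -0.01 ± 0.16 in Pro/Pro HFD and 0.47 ± 0.09 in Pro/Pro chow fat (SD, n = 8, 9, 10 and 10). Its difference was -0.55 ± 0.07 in Ala/Ala and -0.48 ± 0.07 in Pro/Pro. Xbp1 averaged 0.02 ± 0.11 in Ala/Ala HFD, 0.40 ± 0.21 in Ala/Ala chow, -0.01 ± 0.13 in Pro/Pro HFD and 0.32 ± 0.19 in Pro/Pro chow fat, a difference of -0.38 ± 0.08 in Ala/Ala and -0.33 ± 0.07 in Pro/Pro. The diet-by-genotype interaction called 0 members (0% of all genes) by limma, with 2 members, Pdia3 and Dnajc3, at an unadjusted p under 0.05, against 731 of all 16643 genes. Without the 9 fat arrays with transcripts of other organs, 5 members were called in Ala/Ala, and over both genotypes Atf3 (0.34), Canx (-0.15), Manf (0.14), Pdia3 (0.68), Sdf2l1 (0.24) and Sel1l (0.16) were no longer called, with differences close to those over all arrays and fewer arrays in the fit. The share of all genes called in that fit was not counted, and the cause of the lost calls was not tested.

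Markers of other cells also differed between HFD and chow fat. Of 8 macrophage markers 2 rose (Itgax 0.93, Lgals3 0.74) and 3 fell (Cd14 -0.67), and the list's mean averaged 0.11 in Ala/Ala HFD, -0.14 in Ala/Ala chow, -0.04 in Pro/Pro HFD and -0.14 in Pro/Pro chow. Of 5 plasma cell markers, a cell type rich in Xbp1, 2 fell (Jchain -0.72 ± 0.23, Pou2af1 -0.56 ± 0.21) and 0 rose, and their mean ranged from -0.75 to 0.96 in Pro/Pro HFD and from -0.41 to 0.83 in Pro/Pro chow arrays. Of 13 epididymis markers 4 rose and of 9 pancreatic acinar markers 4 rose (Cela1 1.38). Of 6 adipocyte markers 2 rose (Lep 1.57) and 2 fell (Cfd -0.41). The part of these cells in the differences of the ER genes was not tested.

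In muscle the largest diet difference among the members was a rise of Atf3, and Derl1 fell there too. Of the 34 members 3 rose and 2 fell, against 2.79% and 4.55% of all genes, 7.34% in all. Atf3 ranged from -1.22 to 1.39 (median 0.06) in the 17 HFD arrays and from -1.46 to 0.09 (median -0.83) in the 18 chow arrays. It rose by 0.89 ± 0.19 (adjusted p 0.00159), a 1.86-fold difference, and 8 HFD arrays lay above every chow array. Ddit3, which acts beside Atf3, had medians of 0.07 on HFD and -0.11 on chow and rose by 0.15 ± 0.04 (adjusted p 0.0230). Ern1 had medians of -0.02 on HFD and -0.25 on chow and rose by 0.22 ± 0.06 (adjusted p 0.0209), opposite in sign to its fat difference. All 3 probe sets of Ern1 were positive, and 1 was called.

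Atf4 and Derl1 were lower in HFD muscle. Atf4 ranged from -0.18 to 0.27 (median 0.03) on HFD and from 0.10 to 0.40 (median 0.20) on chow, with 10 HFD arrays below every chow array. It fell by 0.16 ± 0.03 (adjusted p 0.00254). Derl1 ranged from -0.07 to 0.15 (median 0.06) on HFD and from 0.02 to 0.38 (median 0.20) on chow. It fell by 0.17 ± 0.03 (adjusted p 0.000415), with all 3 probe sets negative and 1 called. Hspa5 had medians of 0.03 on HFD and 0.11 on chow, a difference of -0.10 ± 0.05 (adjusted p 0.221). Xbp1 had medians of 0.06 on HFD and 0.09 on chow and differed by -0.06 ± 0.04 (adjusted p 0.427). Of 11 chaperones 0 were called in muscle.

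**Figure D3:**
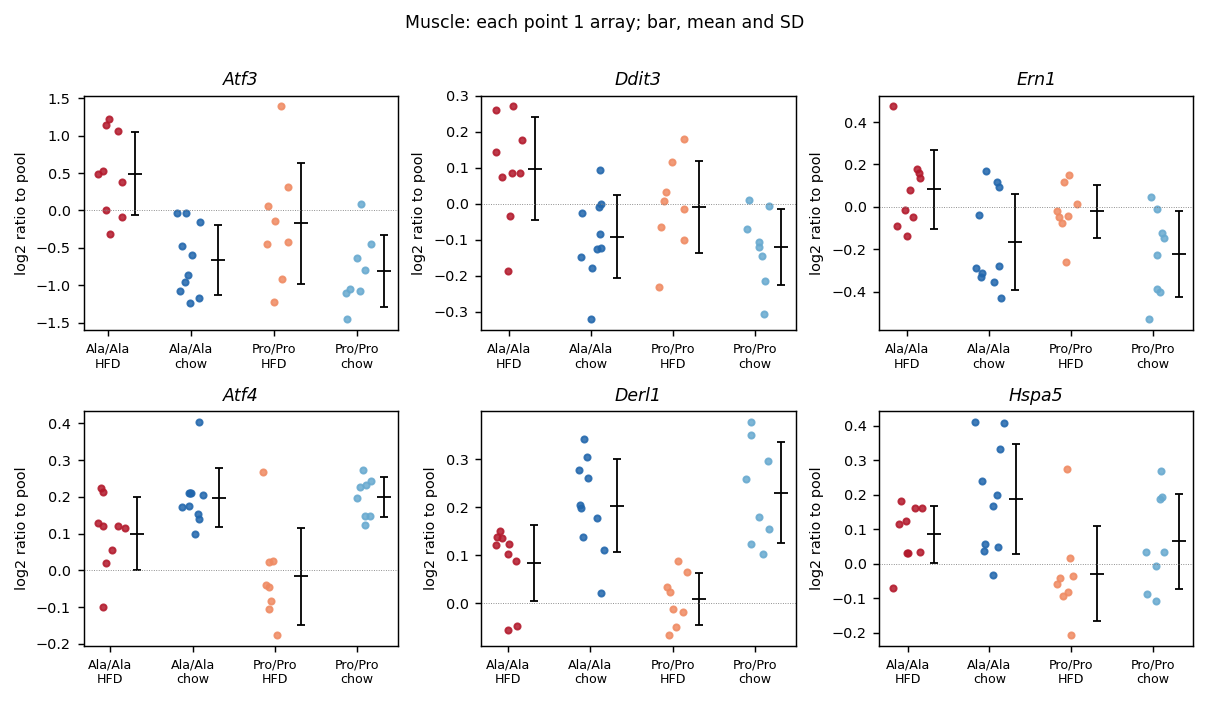
Log2 ratio to the pool of 6 genes in muscle, with 1 point per array in each group and the mean and SD as a bar. Atf3, Ddit3 and Ern1 lie higher and Atf4 and Derl1 lower in the HFD groups. The diets overlap in each panel, except that in Pro/Pro all 8 HFD arrays of Derl1 lie below all 8 chow arrays, and Hspa5 was not called.

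Within genotypes, Atf3 alone was called in Ala/Ala muscle (1.15 ± 0.25, adjusted p 0.00614), against 1.39% of all genes higher and 1.36% lower (2.75% in all). Atf3 averaged 0.49 ± 0.56 in Ala/Ala HFD, -0.66 ± 0.47 in Ala/Ala chow, -0.17 ± 0.80 in Pro/Pro HFD and -0.81 ± 0.48 in Pro/Pro chow muscle (SD). Derl1 ranged from -0.07 to 0.09 in Pro/Pro HFD and from 0.10 to 0.38 in Pro/Pro chow muscle, so these groups did not overlap. The share of all genes without overlap between these groups was not counted. Derl1 (-0.22 ± 0.05) and Atf4 (-0.22 ± 0.05) were called in Pro/Pro muscle, against 0.721% of all genes higher and 1.05% lower (1.77% in all). The interaction called 0 members and 0% of all genes by limma, with 0 members and 652 genes at an unadjusted p under 0.05. The adipocyte marker Lep rose by 1.35 ± 0.20 in HFD muscle. The 6 adipocyte markers averaged 0.79 ± 0.53 in Ala/Ala HFD, 0.13 ± 0.39 in Ala/Ala chow, 0.01 ± 0.30 in Pro/Pro HFD and -0.02 ± 0.59 in Pro/Pro chow muscle (SD, n = 9, 10, 8 and 8). Of 10 immediate early genes, which respond quickly to many stimuli, 1 fell (Junb -0.21) and 0 rose. The part of fat cells in the muscle differences was not tested.

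In liver 0 of the 34 members were called for diet, as were 0% of all genes, with 0 members and 802 genes at an unadjusted p under 0.05 in limma. Hspa5 ranged from -0.56 to 0.49 (median -0.02) on HFD and from -0.45 to 0.15 (median -0.13) on chow. In 6 of 20 HFD arrays it lay above every chow array and in 1 below, and the difference was 0.14 with a 95% interval of -0.01 to 0.28. Xbp1 differed by -0.002, with an interval of -0.19 to 0.18. Atf4 had medians of -0.12 on HFD and -0.21 on chow, and Ddit3 of -0.05 on HFD and -0.01 on chow. Spread within the liver groups was wide: the residual SD of the members had a median of 0.257, against 0.181 over all genes. The widest was Asns, with a residual SD of 1.31 and arrays from -2.31 to 2.31 on HFD and from -2.61 to 1.36 on chow. Creld2, a chaperone secreted under ER stress, had a residual SD of 0.623 and ran from -1.55 to 1.30 on HFD and from -0.91 to 0.44 on chow.

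The diet effect itself was compared between tissues in 1 fit of all arrays. The fat minus liver difference was called for 9 members, 2 higher and 7 lower, against 15.6% and 12.2% of all genes (27.8% in all). It was -0.59 ± 0.07 for Derl1, -0.39 ± 0.09 for Pdia4, -0.35 ± 0.10 for Xbp1 and -0.32 ± 0.09 for Ern1. The fat minus muscle difference was called for 5, 1 higher (Hyou1) and 4 lower, against 14.3% and 11.9% of all genes (26.2% in all). There Ern1, which fell on HFD in fat and rose in muscle, differed by -0.53 ± 0.10 (adjusted p 7.05e-06). Xbp1 differed by -0.29 ± 0.10 (adjusted p 0.0259). The muscle minus liver difference was called for Atf3, at 0.99 ± 0.22 (adjusted p 0.00371), against 0.811% of all genes higher and 0.445% lower (1.26% in all). With mouse number as a block, Ero1l in fat minus liver (0.22) and Hyou1 in fat minus muscle (0.26) were not called, while Atf3 in fat minus muscle (-0.57) and Derl1 in muscle minus liver (-0.25) were, so that 2 members were called in muscle minus liver.

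The study set Ala/Ala against Pro/Pro mice, and for this comparison 0 of the 34 members were called in fat, muscle or liver, over both diets or on either. Over both diets 0.0541% of all genes were called in fat, 0.0361% in muscle and 0.114% in liver. On HFD these shares were 0.102% in fat, 0.012% in muscle and 0% in liver, and on chow 0.018% in fat, 0.03% in muscle and 0% in liver. Pparg itself differed by -0.04 ± 0.08 in fat, 0.17 ± 0.08 in muscle and 0.19 ± 0.16 in liver, none called. Under limma 2 members in fat, 6 in muscle and 4 in liver had an unadjusted p under 0.05, against 972, 1234 and 2510 of all genes. In muscle 32 of the 34 members had a positive difference, with a median of 0.06, against 8697 of 16643 genes and a median of 0.003. The muscle median was 0.08 on HFD, with 30 positive, and 0.05 on chow, with 26 positive. Leaving out each mouse in turn gave medians of 0.05 to 0.08 and 30 to 33 positive members. Members co-vary across the same muscle arrays, with a median r of 0.31 with Hspa5 within groups. These counts are therefore not of independent genes and are given as descriptions. The members with an unadjusted p under 0.05 in muscle were Atf3 (0.41 ± 0.19), Manf (0.12 ± 0.06), Hspa5 (0.12 ± 0.05), Hsp90b1 (0.11 ± 0.05), Pdia6 (0.10 ± 0.05) and Calr (0.08 ± 0.04), with adjusted p between 0.575 and 0.672. Hspa5 averaged 0.08 ± 0.08 in Ala/Ala HFD, 0.19 ± 0.16 in Ala/Ala chow, -0.03 ± 0.14 in Pro/Pro HFD and 0.06 ± 0.14 in Pro/Pro chow muscle (SD), so the groups overlapped. The adipocyte markers given above were also highest in Ala/Ala HFD muscle, and their part was not tested.

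In liver Canx differed by 0.18 ± 0.05 between Ala/Ala and Pro/Pro (adjusted p 0.0999) and Atf3 by -0.35 ± 0.12 (adjusted p 0.161). Both pass the study's own false discovery rate of 0.20, and 0 members pass 0.05. The share of all genes that pass 0.20 was not counted. Whether members pass it more often than other genes therefore cannot be told, and both values are given as descriptions. Canx averaged 0.14 ± 0.14 in Ala/Ala HFD, 0.12 ± 0.16 in Ala/Ala chow, -0.01 ± 0.15 in Pro/Pro HFD and -0.09 ± 0.18 in Pro/Pro chow liver (SD, n = 10 each).

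In liver many members moved with Hspa5 from mouse to mouse within groups. Each array's deviation from its group mean was set against that of Hspa5, and a gene was called related where limma, with group means and Hspa5 as a covariate, gave an adjusted p under 0.05 over all 16642 other genes of the tissue. In liver 21 of the 33 other members were called, all positive, against 5.42% of all genes positive and 4.3% negative. The median r was 0.57 for the members and -0.02 for all genes, and 18 members reached an r of 0.5, against 3.60% of genes. By role, 9 of 10 chaperones and co-chaperones, 6 of 6 oxidative folding enzymes, 4 of 7 degradation genes, 2 of 4 of the sensors and Xbp1, and 0 of 6 of the PERK-ATF4 arm were called.

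The nearest was Manf, with a Pearson r of 0.95 and a Spearman rho of 0.93 over 40 liver arrays (permutation p 1e-05 for each, the smallest that 100000 permutations can give, and limma adjusted p 6.71e-16). Without the 2 arrays farthest from the median of Hspa5 its r was 0.94. Creld2 had an r of 0.90 and a rho of 0.90, and 0.87 without those arrays (adjusted p 8.16e-12). Dnajb11, a J-protein that loads clients onto Hspa5, had 0.88 and 0.87, and 0.85 without them. Hyou1 had 0.86 and 0.85, Syvn1 0.83 and 0.77, Dnajc3, another J-protein, 0.77 and 0.74, and Sdf2l1 0.75 and 0.69, each with a permutation p of 1e-05 for r. Manf was related within each liver group, with r of 0.98 in Ala/Ala HFD, 0.89 in Ala/Ala chow, 0.96 in Pro/Pro HFD and 0.92 in Pro/Pro chow. Xbp1 had an r of 0.57 and a rho of 0.58 (permutation p 0.00067 and adjusted p 0.00485). In the PERK-ATF4 arm, Atf3 had 0.002 and -0.04 and Ddit3 -0.12 and -0.19. The pseudokinase gene Trib3 had -0.41 and -0.50 (permutation p 0.00927 and 0.00192). The arm's other genes were positive, with Asns at 0.42 and 0.31 (permutation p 0.0172 and 0.077, limma adjusted p 0.0574). Atf4 had 0.30 and 0.27, and Chac1 0.23 and 0.19. No gene of this arm was called by limma. Herpud1, which carries an ERSE-II, had an r of -0.25 and was not called.

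**Figure D4:**
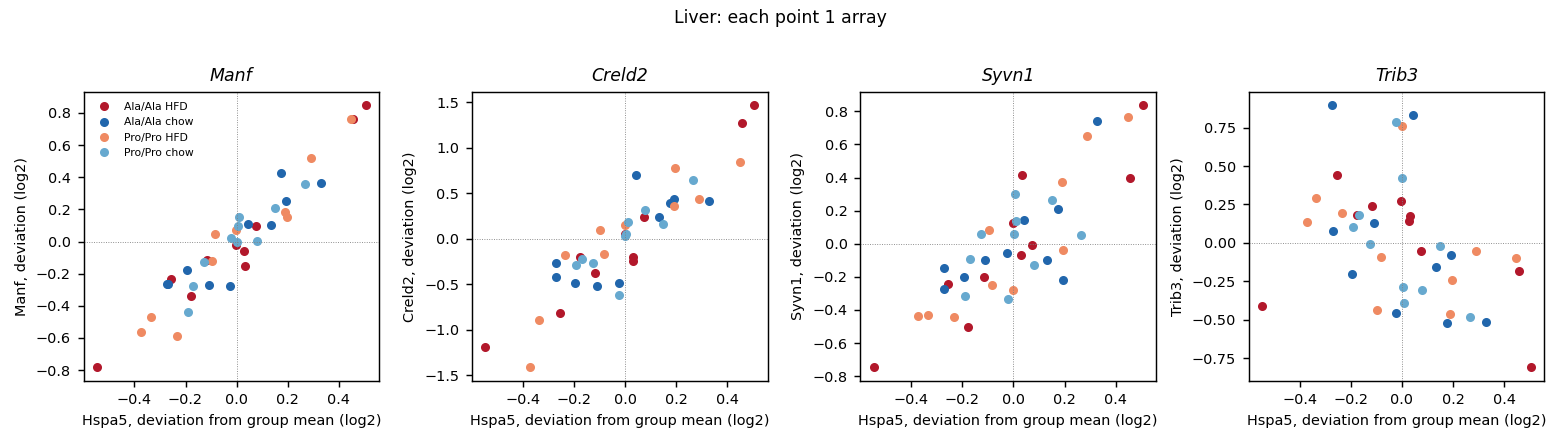
Deviation from the group mean of Manf, Creld2, Syvn1 and Trib3 (y axes, log2) against that of Hspa5 (x axes, log2) on the 40 liver arrays, coloured by group. Manf, Creld2 and Syvn1 rise with Hspa5, with r of 0.95, 0.90 and 0.83, and Trib3 has an r of -0.41.

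In fat 3 of 33 members were called related to Hspa5, against 0.0961% of genes positive, and in muscle 5, against 0.144%. In fat these were Manf (r 0.76, rho 0.68, permutation p 1e-05 and adjusted p 0.00373), Creld2 (0.74 and 0.69) and Pdia6 (0.67 and 0.65). In muscle they were Manf (r 0.89, rho 0.90, permutation p 1e-05 and adjusted p 7.16e-07), Creld2 (0.75 and 0.73), Pdia6 (0.73 and 0.68), Xbp1 (0.70 and 0.65) and Hsp90b1 (0.66 and 0.62). The median r of the members was 0.27 in fat and 0.31 in muscle, against -0.04 and -0.005 over all genes. Manf and Creld2 were thus called in all 3 tissues. Xbp1 followed Hspa5 in muscle and liver but had an r of 0.27 in fat, and the degradation genes reached at most 0.39 in fat and 0.36 in muscle, against 0.83 in liver. These contrasts between tissues were not tested. The residual SD of Hspa5 itself was 0.244 in liver, 0.136 in fat and 0.134 in muscle. The part of this spread in the r values and counts was not tested. Without the 2 arrays farthest from the median of Hspa5, 0 members were called in fat, 1 in muscle and 16 in liver. The shares of all genes called without those arrays were not counted. The r of Manf without them was 0.67 in fat and 0.86 in muscle.

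**Figure D5:**
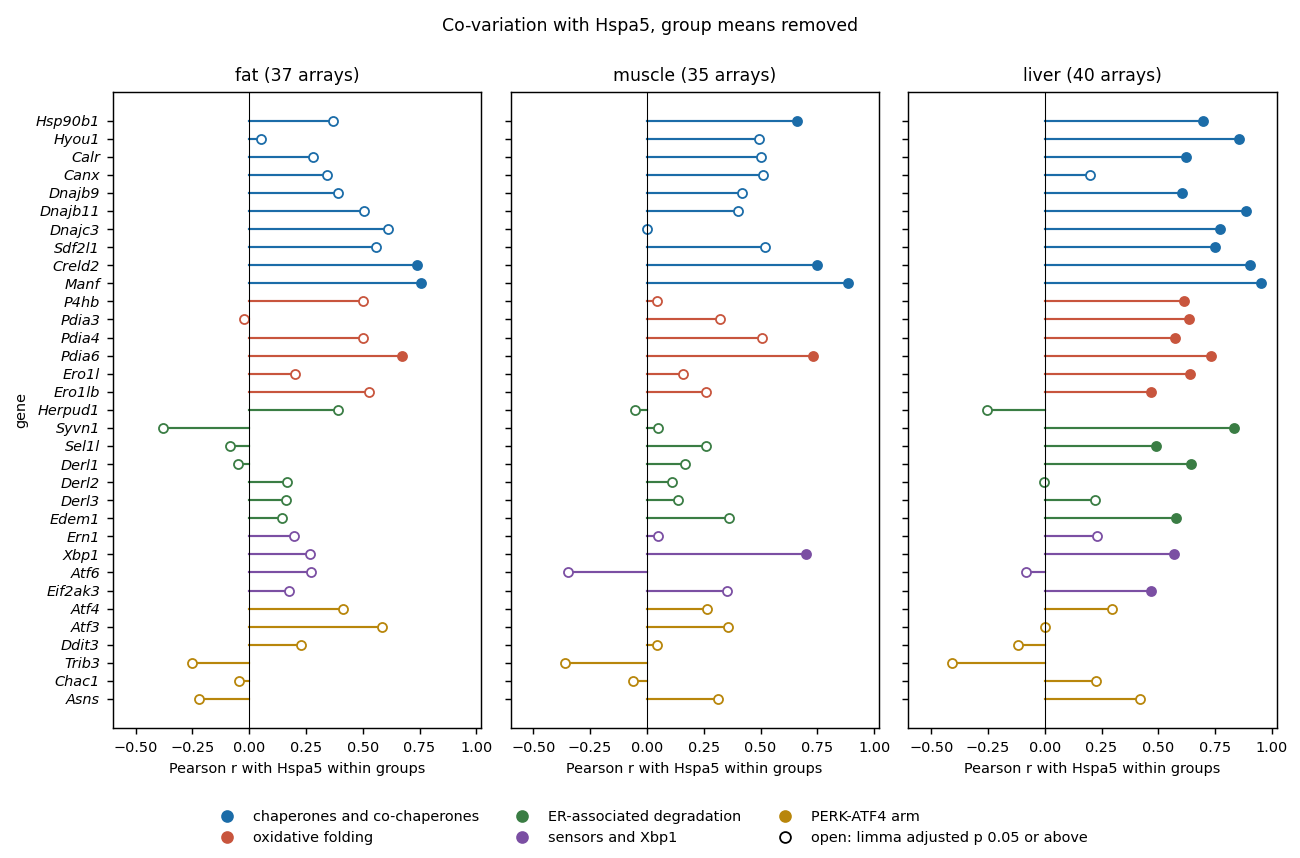
Pearson r of each of 33 genes with Hspa5 within groups, in 37 fat, 35 muscle and 40 liver arrays, coloured by role and filled where the limma adjusted p is under 0.05. In liver 21 are filled, mostly chaperones and folding enzymes, against 3 in fat and 5 in muscle. The residual SD of Hspa5 was also larger in liver (0.244) than in fat (0.136) and muscle (0.134).

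Other measures moved with Hspa5 within groups. In liver the mean of the hepatocyte markers had an r of 0.52 (rho 0.49, permutation p 0.00097, adjusted p 0.0131 over 27 relations) and the macrophage markers an r of 0.55 (rho 0.42, permutation p 0.00043, adjusted p 0.0116). In fat the adipocyte markers had an r of -0.50 (rho -0.52, permutation p 0.00452, adjusted p 0.0255), the macrophage markers 0.46, the immediate early genes 0.41 (rho 0.39, permutation p 0.00566, adjusted p 0.0255) and the array median -0.40. In muscle the array median had an r of -0.42. Their part in the co-variation was not tested. The promoter motifs can be set beside it: in liver the 11 other genes with an ERSE or ERSE-II had a median r of 0.70 with Hspa5 and the 18 without one 0.48, with ranges of -0.25 to 0.90 and -0.41 to 0.75 that overlap. In fat these medians were 0.39 and 0.20, and in muscle 0.40 and 0.29. Neither set holds the genes without a matched promoter, which in liver had r of 0.95 (Manf), 0.86 (Hyou1), 0.64 (Derl1) and -0.08 (Atf6). Every gene of the PERK-ATF4 arm is in the set without an ERSE or ERSE-II, so the sets differ in role as well. Chaperones lie in both sets. In liver those without one, Sdf2l1 (0.75) and Dnajb9 (0.60), lay within the range of those with one, from Canx (0.20) to Creld2 (0.90). The sets were not tested within a role.

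A member's deviation from its group was also compared between tissues of the same mouse. The median r over the 34 members was 0.14 between fat and muscle (31 mice), -0.04 between fat and liver (36 mice) and -0.05 between muscle and liver (35 mice), against -0.002, -0.008 and -0.001 over all genes. Between fat and muscle 3 members reached an r of 0.5, against 1.58% of all genes. These were Xbp1 (r 0.62, rho 0.61, permutation p 0.00108 and 0.00103, and 0.59 without the 2 farthest mice), Ddit3 (0.53 and 0.55, permutation p 0.00486 and 0.00252) and Atf3 (0.51 and 0.49, permutation p 0.00295 and 0.00901). These are 3 of 102 relations computed, their p-values are not adjusted for all genes, and they are given as descriptions. Between muscle and liver Ern1 reached an r of 0.52 (rho 0.49, permutation p 0.00304 and 0.00456), where 0.252% of all genes reached 0.5. Creld2, the next by p there, had an r of -0.42 (rho -0.44, permutation p 0.00646 and 0.0118), and Sdf2l1, Pdia6, Edem1, Eif2ak3 and Manf were also negative, with r between -0.32 and -0.42 and an unadjusted permutation p under 0.05. At that limit stood 7 members between muscle and liver, 1 between fat and liver and 9 between fat and muscle. Those 9 were all positive, and beside the 3 above they were Trib3 (0.49), Calr (0.49), Hspa5 (0.41), P4hb (0.41), Creld2 (0.40) and Manf (0.36). The share of all genes at that limit was not counted.

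Further genes of the same pathways were read from lists that hold none of the 34, and their counts stand against 21.6% of all genes higher and 18.3% lower in fat, and 2.79% and 4.55% in muscle. In fat, of 35 other genes of ER folding, translocation and glycosylation 13 rose and 6 fell on HFD, with Spcs1, a signal peptidase subunit, at 0.34 ± 0.03, Dad1, of the oligosaccharyltransferase, at 0.33 ± 0.04 and the translocation factor Sec63 at -0.37 ± 0.06. Of 11 other degradation genes 5 rose and 3 fell, with the lectin Erlec1 at -0.44 ± 0.06 and the signal peptide peptidase H13 at -0.41 ± 0.06. Of 16 other stress regulators 5 rose and 3 fell, with the ER-bound factor Creb3 at 0.31 ± 0.03 and Nupr1 at 0.51 ± 0.06, and Mbtps2, the protease that completes the cleavage of ATF6, at -0.23 ± 0.04. Of 27 other ATF4 targets 14 rose and 1 fell, with Pycr1, of proline synthesis, at 0.51 ± 0.08, Cebpb at 0.40 ± 0.05 and Shmt2, of mitochondrial folate metabolism, at 0.39 ± 0.07, while the member Asns fell. The median difference of that list was 0.10, against 0.04 over all genes. In muscle 0 of the ER folding list rose and 4 fell, 1 degradation gene fell (Selenos -0.27), 1 stress regulator rose (Wfs1 0.14), and 1 ATF4 target rose (Psat1 0.36) and 1 fell (Pycr1 -0.27). In liver 0 genes of these lists were called, as for all genes.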

How the data were processed

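Gene expression was measured in fat, muscle and liver from 41 mice. The authors deposited log10 ratios for 32640 probe sets, made in Rosetta Resolver against a virtual pool, per the labels. Titles and series text name the pool as Pro/Pro HFD, and sample descriptions name RNA of 10 wild-type samples. In fat and liver the mean of the Pro/Pro HFD arrays returned 0 for nearly all probe sets to within 0.001 (log10), and in muscle, with 8 such arrays, for 10.5% of them, so the muscle pool could not be checked fully. Values were converted to log2. Each gene was read from its most variable probe set, judged within tissues without regard to group and named through the platform annotation and RefSeq's table (GRCm38.p6): 25508 of the probe sets had 1 symbol, 7132 none and 0 several.

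Groups were compared within tissues in limma 3.58.1 (R 4.3.3) with Benjamini-Hochberg adjustment, and the diet effect between tissues in 1 fit of all arrays. The design planned an adjustment of the Hspa5 relations over the members, and limma over all genes replaced it after the data were seen. Permutations (100000) were drawn within groups in Python 3.11.15. Diet effects were simulated over 16643 genes. At a size of 0.25 (log2) limma recovered 58% of changed genes in fat, 78% in muscle and 55% in liver. At 0.5 it recovered 92% in fat, 99% in muscle and 95% in liver. The simulation changed 100 genes at each size, whereas 6640 genes were called in the real fat data and 0 in liver. The adjusted p depends on how many genes change, so these shares do not give the recovery in the real data. Differences of the size seen in most members can be missed, at a rate that was not measured. Mouse numbers mark the same animal across tissues, and the median correlation of same-mouse deviations over all genes was 0.03 between fat and muscle, -0.005 between fat and liver and -0.004 between muscle and liver. The number of arrays limits the precision. Genes named are the members, and beside them the listed genes with the smallest adjusted p. The members and lists were chosen with earlier results of these data known. Alternatives were other normalizations, probe set rules, filters, array weights, a mouse block and leaving out arrays.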

Additional observations from a re-analysis of the deposited data

Results flagged for a closer look

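Of 408 groups of a member's arrays, 27 (6.62%) held an array far from the others of its group by Dixon's criterion, where chance gives about 1 in 20. In fat the high arrays were Sdf2l1 at 0.84 and Syvn1 at 0.21 in Ala/Ala HFD, Pdia3 at 1.18 and Atf3 at 0.83 in Ala/Ala chow, Xbp1 at 0.36 in Pro/Pro HFD, and Atf3 at 0.34 and Chac1 at 1.18 in Pro/Pro chow. The low arrays in fat were Asns at -0.72 in Ala/Ala HFD and at -0.038 in Ala/Ala chow, and Derl1 at -0.40, Sel1l at -0.56 and Eif2ak3 at -0.54 in Pro/Pro HFD, the last 2 of these genes in 1 mouse. That mouse was also the high array of Pro/Pro HFD muscle for Hspa5 at 0.28, Hyou1 at 0.27 and Atf4 at 0.27. Muscle had a further high array for Atf4 at 0.40 in Ala/Ala chow. Its low arrays were Ero1lb at -0.22 in Ala/Ala chow, Pdia3 at -1.63 in Pro/Pro HFD, and Hyou1 at -0.22 and Dnajc3 at -0.43 in Pro/Pro chow. In liver the high arrays were Syvn1 at 0.48 in Ala/Ala chow, and Ero1l at 0.31, Edem1 at 0.31 and Eif2ak3 at 0.86 in a single Pro/Pro HFD mouse. The low arrays in liver were Hsp90b1 at -0.63 in Ala/Ala HFD, Ero1lb at -1.004 in Pro/Pro HFD and Herpud1 at -0.50 in Pro/Pro chow.

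The diet effect differed between tissues by limma's test of the difference for 15 values. In fat minus liver these were Derl1 at -0.59, Pdia4 at -0.39, Xbp1 at -0.35, Ern1 at -0.32, Canx at -0.24, Derl2 at -0.21, P4hb at -0.12, Edem1 at 0.31 and Ero1l at 0.24. In fat minus muscle they were Ern1 at -0.53, Pdia4 at -0.36, Derl1 at -0.34, Xbp1 at -0.29 and Hyou1 at 0.29, and in muscle minus liver Atf3 at 0.99.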

How the results depend on the processing

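No called difference of a single member changed direction, while uncalled values near 0 did in places, such as the r of Hyou1 with Hspa5 in fat (0.05, and -0.02 without the 2 farthest arrays) and the members' median genotype difference in liver (-0.02 to 0.03 on leaving out each mouse). Of the counts of called members 937 stayed within 1.5 times the reported count under the alternatives and 10 did not. The 937 include counts that were 0 and stayed 0, as for genotype, interaction and diet in liver, so they say little about the other counts. Without the 9 fat arrays with transcripts of other organs, 5 members were called for diet in Ala/Ala fat, against 12 with them. Array weights gave 2 members for diet in Ala/Ala muscle, against 1. The mean of probe sets gave 1 for diet in Pro/Pro muscle and the variance filter gave 1, against 2. At a false discovery rate of 0.20, 2 members were called for genotype in liver, against 0. Leaving out the 2 arrays farthest from the median of Hspa5, an alternative in part chosen after seeing the data, gave 0 related members in fat and 1 in muscle, against 3 and 5. With the mouse as a block, which pairs tissues of 1 animal, 8 members were called in fat minus liver, 5 in fat minus muscle and 2 in muscle minus liver, and the block changed no other call than the 4 given above. Leaving out each mouse in turn gave 15 to 19 members for diet in fat, 8 to 14 in Ala/Ala and 8 to 11 in Pro/Pro, and 5 to 6 in muscle, 1 to 2 in Ala/Ala and 2 in Pro/Pro. Among single members 14 values gained a call, including 2 at the rate of 0.20, and 41 lost theirs, among which is counted Sel1l in fat over all probe sets, where probe sets were called in both directions (0.14 and -0.15). Quantile normalization ended the fat calls of Atf3, Canx, Herpud1, P4hb, Pdia3 and Sdf2l1. The mean of probe sets left Sel1l at 0.03 in fat, and Derl2 at -0.09 and Edem1 at 0.13 in fat minus liver, uncalled. The causes were not tested, and the shares of all genes called under the alternatives were not counted. Dim probes could not be filtered on signal, since the ratios carry none.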

Other observations

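Outside the 34 genes, the 9 whose deviations lay nearest to Hspa5 in liver, chosen after their values were seen, were Srm (r 0.85), of polyamine synthesis, Cad (0.83), of pyrimidine synthesis, Lrrc59 (0.82), Wars (0.82), a tRNA synthetase, Sec23b (0.80), of the coat of vesicles that leave the ER, Ostc (0.80), of the oligosaccharyltransferase, Ubxn4 (0.79), Surf4 (0.79), a cargo receptor, and Gfpt1 (0.78), of hexosamine synthesis, over the 40 liver arrays. These are descriptions across arrays of the same livers, with no p-value.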
